A study of Homo sapiens with 2 samples.

Results

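The squamous lineage transcription factors are 10 genes, SOX2, TP63, KLF4, KLF5, GRHL1, GRHL2, OVOL1, OVOL2, SNAI2 and ZEB1, chosen by name among the 12445 named genes of the array. Each was read by 1 probe, so 10 of the 24267 probes carry these factors, and 5 of the 10 stood under an older symbol in the platform annotation. The cells were KYSE-170, an oesophageal squamous carcinoma line, in both arms. The comparison arm received an oligoribonucleotide called ncRNA, whose sequence the labels do not give, and the other arm received miR-210, both with the reagent Hiperfect. Each arm was 1 sample, with 500 ng of its total RNA as input, and was hybridised in Cy5 to 1 Toray oligonucleotide array. Every value below is therefore a single measurement with no replicate check, no p-value was computed, and an effect of miR-210 cannot be told apart from a difference between the 2 cultures, RNA preparations or arrays.

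Squamous epithelium is built from a proliferating basal layer and the differentiating layers above it. TP63 and SOX2 set basal and squamous identity, KLF5 acts in proliferating basal cells and KLF4 in differentiation, and the Grainyhead-like (GRHL) and OVOL factors keep epithelial junction genes active. SNAI2 and ZEB1 are zinc finger repressors that bind E-box letters and lower epithelial genes, and the OVOL factors and ZEB1 are known to repress each other. miR-210 is a microRNA induced by hypoxia, and a microRNA lowers transcripts that pair with its seed, bases 2 to 8 of the mature strand.

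The mature sequences of the microRNA are shown because the transfected agent carried its name, with the seed in capitals. They are from RefSeq (GRCh38.p14, minus strand, chr11:568112-568133 for the 3p arm and chr11:568150-568171 for the 5p arm). The labels do not say which arm the oligoribonucleotide held.
hsa-miR-210-3p: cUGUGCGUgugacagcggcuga
hsa-miR-210-5p: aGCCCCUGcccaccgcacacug
Transcript sequences were not used here, so pairing of either seed with the 10 factors was not examined.

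The ncRNA array had a median probe intensity of 39 and the miR-210 array one of 36, on the deposited linear scale, with the 25th percentile at 17 on both and the 75th percentile at 162 and 150. Differences are given as log2 ratios, miR-210 over ncRNA. Quantile normalization was applied first, which gives both arrays the same distribution. The level of a probe is the mean of its normalized log2 intensities over the pair of arrays, taken back to the linear scale. For a probe that differs between the arrays it lies under the plain mean of both intensities. The level filter kept a gene whose level was at or above that of the median probe, 37.5. The 6681 genes kept had a median log2 ratio of 0.0084 with a SD of 0.54. The only error at hand is the scatter of single probes about their gene, a SD of 0.44 on the log2 scale over 251 genes with 2 or more kept probes, and it leaves out differences between cultures and arrays. FGFRL1, the miR-210 target that the study is known for, read 277 with ncRNA and 21 with miR-210. The squamous type of the cells was looked for in the mean level over both arrays, where 6681 of all 12445 named genes were kept. There 10 of 11 named squamous markers passed the filter, the exception being TP63, while none of 8 named columnar epithelial markers did. Of the 10, PKP1 read 30 with ncRNA, under the filter level, and 49 with miR-210. The 10 kept squamous markers had a median log2 ratio of 0.46, with 8 above 0, against 50.8% of all kept genes. At least 2-fold higher was 1, KRT17 at 1.01 (1541 and 2736), against 3.02% of all kept genes, and KRT16 stood at 0.57 (86 and 118). The 2 under 0 were S100A2, the brightest of them, at -0.53 (15066 and 8868), and TRIM29 at -0.29 (772 and 584). The columnar markers, all dim, had intensities from 9 to 36 with ncRNA and from 14 to 31 with miR-210. They serve below as the range read for genes of another epithelium. Not all genes of other epithelia were dim, since KRT18, a keratin of simple epithelia, read 10285 and 14550. Of 13 named factors of columnar and other lineages 6 were kept, among them FOXA1 (192 and 106) and GATA6 (206 and 262). Of 6 named endothelial markers 3 were kept, KDR at -0.77 (66 and 36), ESAM at 0.65 (100 and 145) and VWF at -0.18 (126 and 103), and of 8 named leukocyte markers only CD79A was, at 0.015 (133 and 126).

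Of the 10 factors, 7 passed the level filter, as did 6681 of all 12445 named genes. Of the 7, 4 had a ratio under 0 and 3 a ratio above 0. Among the 7, SNAI2 alone lay at least 2-fold lower with miR-210, against 3.17% of all kept genes, and none lay at least 2-fold higher, against 3.02%. On the deposited scale 2 of 7 lay at least 2-fold lower, SNAI2 and SOX2, against 4.76% of genes, and with no level filter 2 of 10 did, SNAI2 and TP63, against 6.72%. The median ratio of the 7 was -0.36. In all, 4 of the 7 (SNAI2, SOX2, OVOL2 and GRHL1) lay more than 0.44 from 0, against 34.8% of all kept genes, and 3 of the 7 (SNAI2, SOX2 and GRHL1) lay more than 0.87, or 2 probe SDs, from 0, against 9.46%. GRHL1 passed the filter only through the miR-210 array, where it was higher, so its place in both counts follows partly from the filter. TP63, KLF4 and ZEB1 were under the filter.

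**Figure D1:**
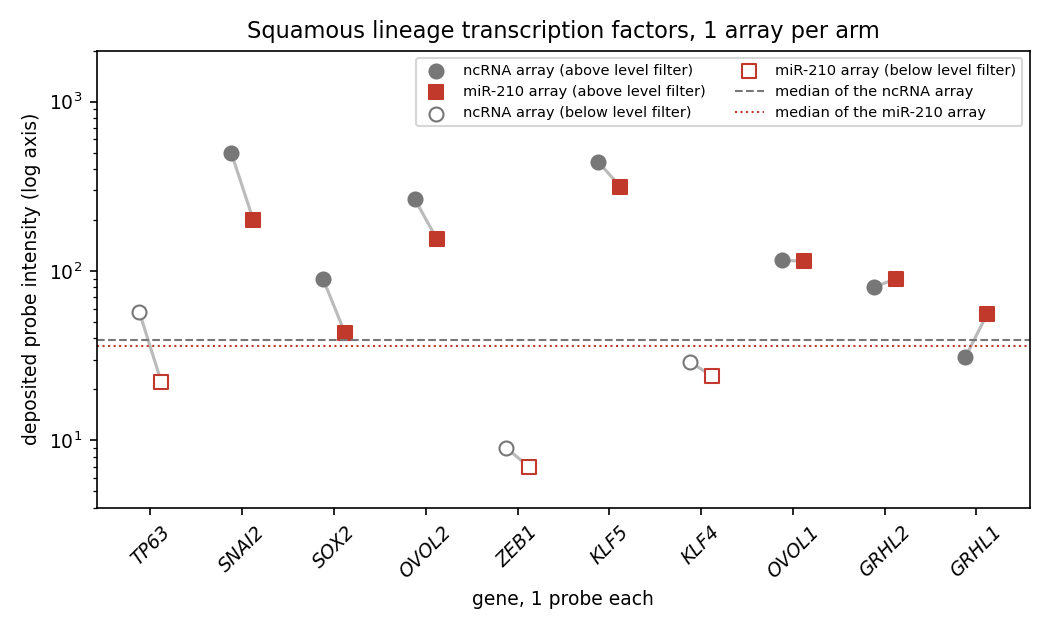
Deposited probe intensity (log axis) of the 10 factors on the ncRNA array (circles) and the miR-210 array (squares), ordered by log2 ratio, with open symbols for genes under the level filter and lines at the array medians of 39 and 36. SNAI2 goes from 501 to 201 and GRHL1 from 31 to 56, while both ZEB1 values, 9 and 7, lie at the bottom of the range.

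The 2 factors of basal and squamous identity both read lower on the miR-210 array. SOX2, a high mobility group factor amplified in many squamous carcinomas, had an intensity of 90 with ncRNA and 43 with miR-210. Its log2 ratio was -0.96, or 1.94-fold lower, rank 249 from the lowest of 6681 genes. Both SOX2 values were above their array median, the miR-210 value only just. TP63, the factor required for stratified epithelia, had an intensity of 57 with ncRNA and 22 with miR-210. Its log2 ratio of -1.29, or 2.45-fold lower, was the most distant of the 10 factors, but its mean level of 35.1 lay just under the filter at 37.5 and its miR-210 value lay within the range of the columnar markers. With an offset of 16 added to every intensity before log2, the ratio of TP63 was -0.88 and that of SOX2 was -0.76. Among the 1000 probes nearest in mean level, 1.4% had a ratio at least as low as that of TP63, and 4.8% one at least as low as that of SOX2. The sources used here do not say which TP63 transcripts the probe reads.

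Other factors of the squamous lineage lay on both sides of 0. Of 20 genes listed as partners and relatives of these 2 factors, 16 had a named probe and 10 were kept, 5 above 0 and 5 under it, none at least 2-fold apart, with a median of -0.050 and a mean of 0.017. SOX15, a SOX family member expressed in keratinocytes, was the lowest at -0.78 (546 and 293), followed on that side by SOX4 at -0.38 (74 and 53). TFAP2A and TFAP2C, AP-2 factors of surface ectoderm, stood at 0.74 (30 and 47) and 0.55 (115 and 155), and the ncRNA value of TFAP2A was within the range of the columnar markers. The TP63 paralog TP73 was under the filter, with 23 and 21.

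Known targets of TP63 were more often above 0 than under it. Of 30 listed targets, 27 were named and 21 kept, 15 above 0, against 50.8% of all kept genes, and 6 under it. Of the 21, 10 lay within the probe SD of 0.44, 6 above it, against 17.9% of all kept genes, and 5 under its negative, against 16.8%. The median was 0.19 on the quantile scale and 0.077 on the deposited scale. The list is not separate from the squamous markers given above, since KRT5, KRT14, KRT15, S100A2, DSG3, DSC3, TRIM29 and PKP1 are kept in both. The list was not split by whether TP63 activates or represses a gene, so its median gives no direction for TP63 activity. Only ITGA6, an integrin of the hemidesmosome, was at least 2-fold apart, at 1.89 (125 and 428). Of all kept genes 3.02% were at least 2-fold higher and 3.17% lower. KRT5, a keratin of basal cells, stood at 0.90 (290 and 496), its partner KRT14 at 0.24 (376 and 404) and the desmosomal plakophilin PKP1 at 0.80 (30 and 49), its ncRNA value within the range of the columnar markers. PERP, a desmosomal gene, was on the other side at -0.80 (565 and 301).

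KLF5, which is active in proliferating basal cells, had an intensity of 441 with ncRNA and 315 with miR-210. Its log2 ratio of -0.36, or 1.28-fold lower, was within that probe SD. KLF4, a factor of squamous differentiation, read 29 and 24, below the array median in both arms and within the range of the columnar markers. No direction can be read for KLF4 from these values (log2 ratio -0.20).

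The other KLF and SP genes lay on both sides of 0. Of 19 listed, 15 were named and 6 kept, 4 above 0 and 2 under it, with a median of 0.22. KLF3, a repressor of the family, was the only kept gene at least 2-fold apart, at 1.58 (23 and 65). Its ncRNA value was under the array median and within the range of the columnar markers. KLF3 passed the filter only through the miR-210 array, where it was higher, so its place in this count follows partly from the filter. At least 2-fold higher were 3.02% of all kept genes. SP3 stood at 0.98 (63 and 116), and KLF13 and SP1 at -0.44 (82 and 56) and -0.36 (403 and 287). Differentiation genes known to be driven by KLF4 lay mostly under 0. Of 16 listed, 14 were named and 9 kept, 7 under 0 and 2 above, while 50.8% of all kept genes lay above 0. The median was -0.50. CSTA, a protease inhibitor of the cornified envelope, was the only gene at least 2-fold apart in this list, at -1.23 (569 and 226). At least 2-fold lower were 3.17% of all kept genes. KRT4, a keratin of the suprabasal oesophagus, stood at -0.88 (97 and 49), the envelope protein PPL at -0.59 (616 and 379) and the cell cycle inhibitor CDKN1A at 0.79 (504 and 802).

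**Figure D2:**
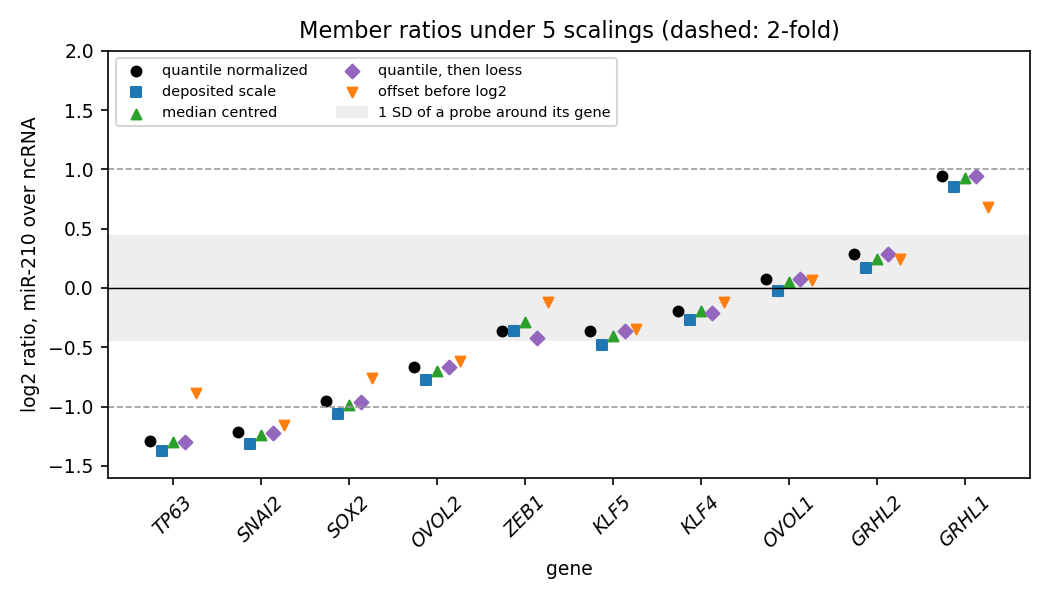
Log2 ratio of miR-210 over ncRNA for each of the 10 factors under 5 scalings, with a band of 1 probe SD (0.44) and dashed lines at 2-fold. OVOL1 alone changes sign, between -0.025 and 0.077, and SNAI2 stays past the 2-fold line in each scaling, between -1.32 and -1.16.

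GRHL1, which activates desmosomal genes, had an intensity of 31 with ncRNA and 56 with miR-210. Its log2 ratio was 0.95, or 1.93-fold higher, rank 249 from the highest of 6681 genes. The ncRNA value of GRHL1 was under the array median and within the range of the columnar markers, so the size of its ratio and its rank are uncertain, and with the offset of 16 the ratio was 0.68. GRHL2, which maintains E-cadherin and claudin genes, was near equal on both arrays, with 80 and 90 and a log2 ratio of 0.29, within the probe SD. GRHL3, the family member of late epidermal differentiation and not among the 10 factors, stood at -0.95 (64 and 31), with its miR-210 value also within the range of the columnar markers. The probe sequences were not used here, so cross-hybridisation among the GRHL genes was not tested.

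The OVOL pair differed in value. OVOL1, a zinc finger repressor that promotes epithelial differentiation, read 116 and 114, a log2 ratio of 0.077. On the deposited scale, where the median of all kept genes is -0.12, its ratio was -0.025, or 0.093 above that median, and on both scales it was well within the probe SD. OVOL2, a paralog that restrains mesenchymal genes, had an intensity of 266 with ncRNA and 155 with miR-210. Its log2 ratio was -0.67, or 1.59-fold lower, and it ranged from -0.78 to -0.62 over 5 scalings. Of 11 listed relatives of the GRHL and OVOL genes, 8 were named and 4 kept, with 2 on each side of 0 and a median of -0.13. Besides GRHL3, the epithelial ETS factors EHF and ELF3 stood at -0.35 (48 and 35) and 0.33 (354 and 408), and TFCP2 at 0.089 (455 and 443).

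Genes known to be activated by GRHL factors were mostly above 0 by small amounts. Of 19 listed, 18 were named and 15 kept, 12 above 0, against 50.8% of all kept genes, and 3 under it. The median was 0.13, and 0.036 on the deposited scale. The serine protease PRSS8 was the only kept gene at least 2-fold apart, at -1.18 (154 and 63), against 3.17% of all kept genes at least 2-fold lower. OCLN, which encodes the tight junction protein occludin, was at 0.96 (241 and 431), with its second kept probe at 0.53 (150 and 200). The adhesion molecule EPCAM stood at 0.66 (4502 and 6165), and the exchange factor ARHGEF19 at -0.55 (72 and 46).

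SNAI2 (Slug), a repressor that is also expressed by basal keratinocytes, had an intensity of 501 with ncRNA and 201 with miR-210, both well above the array medians. Its log2 ratio was -1.22, or 2.32-fold lower, rank 118 from the lowest of 6681 genes. Among the 1000 probes nearest in level, 2.1% had a ratio at least as low. SNAI2 was the only factor of the 10 that was both above the filter and past 2-fold on the quantile scale. In these bulk samples, fewer cells that express a gene and less of its RNA per cell cannot be told apart. Fibroblasts also express SNAI2. The labels name only the KYSE-170 line in both arms, and a part of any other cells in the ratio was not tested. Of 9 named fibroblast markers DCN, PDGFRB and FAP were kept, at 0.10 (183 and 181), -0.037 (87 and 78) and 0.013 (52 and 49). The summed intensity of all 9 was 402 with ncRNA and 383 with miR-210, and none was at 0. The collagens COL1A1 and COL3A1 read 21 and 20 with ncRNA and 16 each with miR-210.

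ZEB1, the other repressor, read 9 and 7, near the bottom of both arrays and no higher than the lowest columnar marker on either. Its log2 ratio of -0.37 gives no direction at that level, where 19.8% of the 1000 nearest probes were at least 2-fold lower and 21.9% at least 2-fold higher. Of the other factors of the epithelial-mesenchymal transition, ZEB2 (15 and 12), TWIST1 (9 and 11) and SNAI1 (2 and 13) were also under the filter. Of 10 listed, 8 were named and 3 kept, all under 0, with a median of -0.22, but with no level filter the median of all 8 was 0.046. The 3 kept were the E proteins TCF4 at -0.43 (68 and 47) and TCF3 at -0.22 (1423 and 1089), and FOXC2 at -0.12 (114 and 97).

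**Figure D3:**
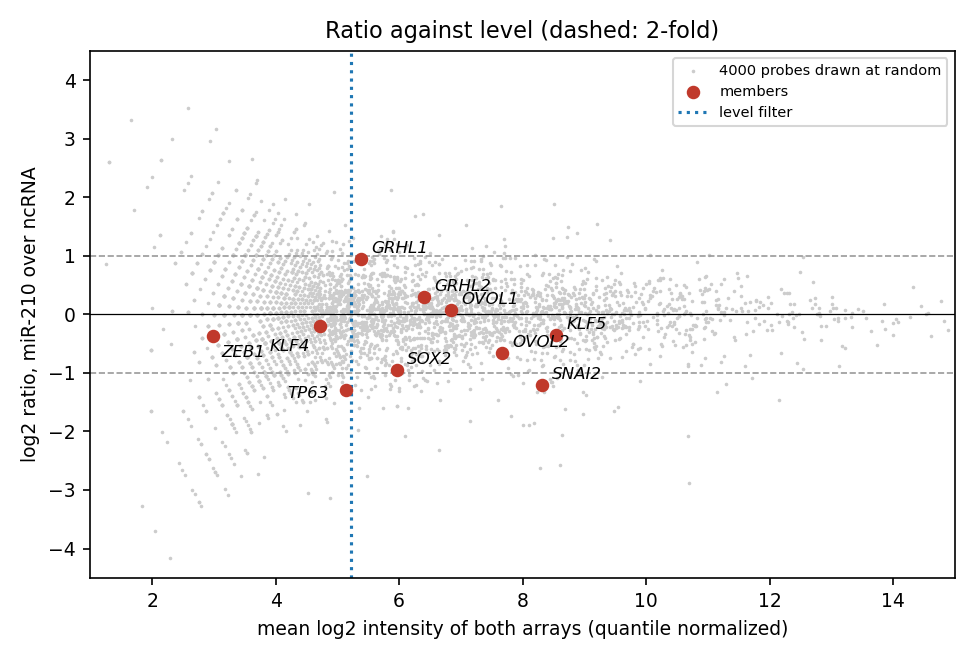
Log2 ratio of miR-210 over ncRNA against mean log2 intensity for 4000 probes drawn at random (grey) and the 10 factors (red), with the level filter dotted and 2-fold dashed. The grey cloud is widest on the left, where ZEB1 lies, and narrower at the levels of KLF4 and SNAI2. SNAI2 lies under the lower 2-fold line.

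Genes known to be repressed by SNAI2 or ZEB1 had ratios mostly above 0. Of 22 listed, 21 were named and 18 kept, 14 above 0, against 50.8% of all kept genes, and 4 under it, with a median of 0.32, and of 0.20 on the deposited scale. Of the 18, 11 lay within the probe SD of 0.44, 6 above it, against 17.9% of all kept genes, and 1 under its negative, against 16.8%. None was at least 2-fold higher, against 3.02% of all kept genes, and 1 was at least 2-fold lower, against 3.17%. That was the tight junction gene CLDN1, at -1.26 (474 and 182). KRT18, a keratin of simple epithelia, stood at 0.77 (10285 and 14550), and OCLN and EPCAM have been given above. CDH1, which encodes E-cadherin and is the best known target of these repressors, was near equal on both arrays, with 64 and 69 and a ratio of 0.21, within the probe SD. The list is not separate from that of GRHL targets: 9 kept genes are in both, 60% of the GRHL list and 50% of this one.

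Promoters of this list are shown to give examples of the E-box that SNAI2 and ZEB1 bind. The RefSeq promoter table of GRCh38.p14, with windows from 250 bases before to 50 bases after a start, held 18 windows for 12 of the 22 genes. The letters CAGGTG, or CACCTG on the other strand, were found in 9 of the 18 windows (8 of the 12 genes), against 20.6% of all 35116 windows. The letters were also found in 10 of 16 windows of GRHL targets, a list that shares genes with this one. They were in 6 of 12 windows of GRHL and OVOL relatives and 4 of 10 of KLF4 targets. In the other related lists the share ran from 0 of 15 windows of the epithelial-mesenchymal transition factors to 8 of 35 of TP63 targets. The window of CLDN1, the list's gene past 2-fold, held none. CRB3, a polarity gene with 265 and 301 and a ratio of 0.30, and CLDN7, a claudin gene with 187 and 251 and a ratio of 0.54, had the most matches, 5 each. OCLN had the highest ratio of the list, and RAB25, a vesicle GTPase gene with 320 and 243, had the lowest ratio of the genes with a match, -0.28. The windows below run 5′ to 3′ on the gene's strand with the matches in capitals, at chr19:6464021-6464320 (plus) for CRB3, chr17:7262429-7262728 (minus) for CLDN7, chr5:69492540-69492839 (plus) for OCLN and chr1:156060910-156061209 (plus) for RAB25.
CRB3: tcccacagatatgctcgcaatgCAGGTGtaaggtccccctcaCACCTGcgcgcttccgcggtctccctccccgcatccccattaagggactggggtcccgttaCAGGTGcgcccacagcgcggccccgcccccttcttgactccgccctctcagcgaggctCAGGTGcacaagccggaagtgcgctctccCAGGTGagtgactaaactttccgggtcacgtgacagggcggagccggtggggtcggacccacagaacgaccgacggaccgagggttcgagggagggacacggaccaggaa
CLDN7: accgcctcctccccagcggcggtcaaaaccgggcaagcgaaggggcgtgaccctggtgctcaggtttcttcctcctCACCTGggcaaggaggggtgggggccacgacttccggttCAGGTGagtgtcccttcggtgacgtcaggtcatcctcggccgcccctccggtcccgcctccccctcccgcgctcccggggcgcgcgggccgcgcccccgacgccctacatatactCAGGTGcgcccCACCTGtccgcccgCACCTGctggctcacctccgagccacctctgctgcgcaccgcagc
OCLN: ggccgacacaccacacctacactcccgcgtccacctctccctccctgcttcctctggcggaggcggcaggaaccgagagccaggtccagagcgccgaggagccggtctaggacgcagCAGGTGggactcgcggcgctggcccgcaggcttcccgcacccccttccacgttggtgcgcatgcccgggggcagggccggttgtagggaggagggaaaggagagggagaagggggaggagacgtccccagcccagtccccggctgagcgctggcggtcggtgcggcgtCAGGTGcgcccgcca
RAB25: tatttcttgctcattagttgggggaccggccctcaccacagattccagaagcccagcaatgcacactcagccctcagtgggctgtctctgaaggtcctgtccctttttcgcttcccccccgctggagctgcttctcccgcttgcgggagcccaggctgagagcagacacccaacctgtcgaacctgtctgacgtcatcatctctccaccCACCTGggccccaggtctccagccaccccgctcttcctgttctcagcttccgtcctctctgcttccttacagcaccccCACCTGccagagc
Genes with the letters thus lay on both sides of 0. A match is a run of letters and was not tested for binding.

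The promoters of the factors themselves were searched in the same way, in 13 windows of 6 of the 10 genes (SOX2, TP63, KLF4, KLF5, GRHL1 and ZEB1). ZEB1 has 7 of the 13 windows, so shares of windows weigh it most. CAGGTG was found in 2 of the 13 windows, both of ZEB1. The GRHL letters AACCGGTT were found in none of the 13 and in 0.134% of all windows, and the shorter ACCGGT in none and in 1.83%. The KLF letters GGGTGTGG were found in 2 windows and in 3.28% of all, and GGGTGGGG in 3 windows and in 11.1% of all, each time in ZEB1. The SOX letters ACAATG were found in 1 window, of KLF5, and in 10.8% of all, and AACAATG in none and in 3.33%. The TP63 core letters ACATGT was found in 1 window, of ZEB1, and in 4.19% of all. Both strands were read for each motif, ACCGGT lies within AACCGGTT, and ACAATG lies within AACAATG.

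Mesenchymal genes lay mostly near 0. Of 20 listed, 19 were named and 8 kept, 6 above 0, against 50.8% of all kept genes, and 2 under it. Of the 8, 6 lay within the probe SD of 0.44 and 2 above it, against 17.9% of all kept genes. None was at least 2-fold apart, and the median was 0.098. On the deposited scale it was -0.011, or 0.11 above the median of all kept genes there. Vimentin (VIM), the intermediate filament of mesenchymal cells, was under the filter with 24 and 19. The kept genes farthest from 0 were COL5A1 at 0.79 (95 and 152), FN1 at 0.75 (41 and 64), COL6A3 at 0.41 (42 and 52) and S100A4 at -0.28 (302 and 228). The direction of FN1 is uncertain, since its 2 dimmer probes, both under the filter, stood at -0.45 (30 and 21) and -1.83 (22 and 6).

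Factors of columnar and other lineages lay on both sides of 0. Of 16 listed, 13 were named and 6 kept, 4 under 0 and 2 above it. Of the 6, 2 lay within the probe SD, 1 above it and 3 under its negative. Of all kept genes 50.8% lay above 0. The median of the 6 was -0.41, and none was at least 2-fold apart. FOXA1, a pioneer factor of glandular epithelia, stood at -0.74 (192 and 106), the lung and thyroid factor NKX2-1 at -0.62 (74 and 45) and GATA3 at -0.54 (85 and 54). GATA6 stood at 0.47 (206 and 262). The size of these ratios is like that of OVOL2, and none of the 4 exceeds 2 probe SDs.

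**Figure D4:**
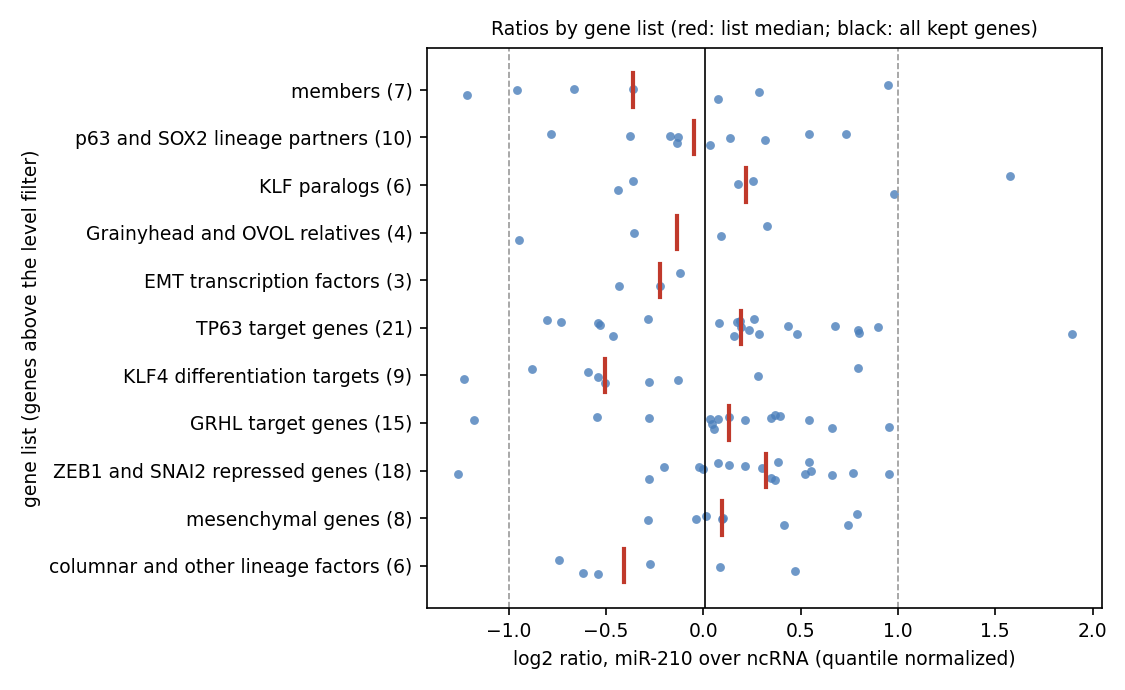
Log2 ratio of miR-210 over ncRNA for each kept gene (points) of the 10 factors and 10 related gene lists, with the list median in red, the median of all kept genes in black and dashed lines at 2-fold. The medians run from -0.50 for KLF4 differentiation targets to 0.32 for genes repressed by ZEB1 and SNAI2, and every list overlaps the others.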

How the data were processed

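Intensity values were deposited by the authors as whole numbers on a linear scale, 1 column per array, from -8 to 65496. The unit was read from the values. Those under 0 require that a background had been subtracted. The sources used here do not state the scanner, background correction or normalization. Groups came from the sample titles.

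The 24177 probes above 0 on both arrays were taken to log2 and quantile normalized, as in an earlier analysis of these data, and kept as described above. Of 24267 probes, 13395 had 1 platform symbol, none several and 10872 none. In all, 2285 symbols were updated through RefSeq synonyms (GRCh38.p14). Where several probes of a gene were kept, the brightest stood for it. The normalization was tested on simulated data whose changed probes were all brighter than TP63, KLF4, ZEB1 and GRHL1. That test therefore does not cover the levels of these 4 factors. Python 3.11.15, pandas 2.3.3, numpy 2.4.6 and statsmodels 0.14.6 were used.

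The 10 factors and the related lists were chosen with earlier results of these data known, and the promoter motifs after the values were seen. Each factor was named, with the 4 kept genes of largest ratio per list and a few fixed paralogs and targets (GRHL3, SNAI1, ZEB2, TP73, TWIST1, CDH1, VIM, KRT5, KRT14). The rule also fixed 1 gene that is not reported here. Other genes given as reference values were chosen after theirs were seen. With 2 arrays no likeness of pattern between genes was computed. The number of arrays limits the precision.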

Additional observations from a re-analysis of the deposited data

How the results depend on the processing

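The alternatives were no between-array normalization, median centring, loess on level with a span of 0.3, an offset of 16 before log2, no level filter, a filter at the 75th percentile and the mean over kept probes. Signs of 9 of the 10 factors held over the 5 scalings, OVOL1 being the exception through the shift of all genes on the deposited scale. Factors at least 2-fold lower numbered 2 on the deposited scale, where SOX2 joined SNAI2 at -1.07, and 2 with no level filter, where TP63 joined it. At the 75th percentile the 3 factors left had a median of -0.67. Among all kept genes, 212 were at least 2-fold lower and 202 higher, against 318 and 140 on the deposited scale. These counts were 834 and 878 with no filter and 98 and 95 at the 75th percentile, where the number of genes tested was 12405 and 3467, and 134 genes were higher with the offset. On the deposited scale the median of TP63 targets was 0.077 and that of genes repressed by ZEB1 and SNAI2 was 0.20, a shift shared by all genes. With no filter the latter was 0.21 and that of the transition factors 0.046. At the 75th percentile few genes were left, and the medians were -0.36 for 1 KLF or SP gene, 0.21 for 2 GRHL or OVOL relatives and 0.47 for 1 columnar factor. No paired analysis was possible because each arm had 1 array, and no replicate could be left out. The medians of partners of SOX2 and TP63 and of mesenchymal genes, both near 0, also changed sign in 1 setting each, to 0.085 at the 75th percentile and, with the shift of all genes, to -0.011 on the deposited scale. Judged by the columnar markers, signal over background limits TP63, KLF4, ZEB1 and GRHL1. The fibroblast marker DCN read 183 and 181, above SOX2 (90 and 43), GRHL2 (80 and 90) and OVOL1 (116 and 114). Whether the values of SOX2, GRHL2 and OVOL1 lie above background was not tested.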
